A study of Mus musculus with 6 samples.

Results

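The genes described here are 10 genes of glucose uptake and glycolysis: the glucose transporters Slc2a1 and Slc2a3, the glycolytic enzymes Hk2, Pfkp, Aldoa, Pgk1, Eno1, Pkm and Ldha, and the pyruvate dehydrogenase kinase Pdk1. They were chosen by name and not by a measured value, though with earlier results of these data known. All 10 were found among the 35542 genes of the deposited table. All 10 passed the filter on low read numbers, which kept 14132 genes for testing. RNA-seq had been performed on tailbud tissue containing the presomitic mesoderm (PSM), dissected from single mouse embryos with 8 somites. There were 3 embryos of genotype Smchd1+/+ (called WT) and 3 of genotype Smchd1MommeD43/MommeD43 (called MommeD43), all on the FVB/NJ strain. MommeD43 is a missense allele of Smchd1 that came from a chemical mutagenesis screen, and SMCHD1 is a chromatin protein needed for X inactivation and for silencing of several gene clusters. Both genotypes had a male as replicate 1 and females as replicates 2 and 3. The embryo codes in the labels give the males the same mother and the 4 females different mothers, so in the males the litter and the sex cannot be told apart. No treatment was given. The labels' source field reads NSCs, while the tissue field and titles name the tailbud.

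Glycolysis splits glucose into pyruvate in the cytoplasm and yields ATP without oxygen, and lactate dehydrogenase then turns pyruvate into lactate and returns NAD+. The tailbud of the vertebrate embryo is known for high glycolytic activity, which falls off as cells leave it and enter the somites. Many of these genes carry hypoxia response elements and are targets of HIF1 and MYC.

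The 6 libraries held 10957916 to 47298348 reads, a 4.32-fold range, and none of the tissue's 11 tailbud and PSM markers (such as T, Tbx6 and Msgn1) lacked reads in any library. The summed level of these markers was 647 to 885 RPKM in WT and 654 to 782 RPKM in MommeD43. RPKM is the number of reads of a gene divided by the length of its exons and by the size of the library. Markers of primitive erythroid cells summed to 7.69, 474 and 178 RPKM in WT replicates 1 to 3 and to 16.3, 212 and 18.1 RPKM in MommeD43 replicates 1 to 3. Smchd1 itself had a WT level of 8.07 ± 0.672 RPKM and a MommeD43 level of 7.58 ± 0.3997 RPKM (SD, n = 3). Its log2 difference was -0.09, and since the allele changes a codon its RNA level does not check the labels.

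The DNA just before the start sites is shown for 5 of these genes. Their levels varied together or in opposition between embryos, as described further on, but so did those of members not shown. Aldoa and Pkm, for example, had Pearson's r of 0.964 and 0.914 with Ldha over the 6 embryos. Capitals mark ACGTG and GCGTG, the core letters of the hypoxia response element, and their reverse complements CACGT and CACGC. Each line gives the 250 bases before a RefSeq start on the gene's strand (GRCm38.p6, sequence from RefSeq): Ldha start a at chr7:46845554-46845803 (+), Ldha start b at chr7:46846832-46847081 (+), Pgk1 at chrX:106186850-106187099 (+), Hk2 at chr6:82774455-82774704 (-), Pdk1 at chr2:71872974-71873223 (+) and Slc2a1 at chr4:119108495-119108744 (+).
Ldha start a: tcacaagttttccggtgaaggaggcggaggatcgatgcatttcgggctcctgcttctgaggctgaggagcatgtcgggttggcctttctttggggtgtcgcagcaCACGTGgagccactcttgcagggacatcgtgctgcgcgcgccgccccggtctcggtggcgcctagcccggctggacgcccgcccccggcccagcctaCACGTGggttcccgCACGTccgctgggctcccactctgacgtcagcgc
Ldha start b: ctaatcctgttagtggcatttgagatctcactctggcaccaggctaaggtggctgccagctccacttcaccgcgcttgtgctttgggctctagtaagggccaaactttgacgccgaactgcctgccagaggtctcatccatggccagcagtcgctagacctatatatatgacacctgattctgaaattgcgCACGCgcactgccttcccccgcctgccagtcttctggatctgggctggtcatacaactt
Pgk1: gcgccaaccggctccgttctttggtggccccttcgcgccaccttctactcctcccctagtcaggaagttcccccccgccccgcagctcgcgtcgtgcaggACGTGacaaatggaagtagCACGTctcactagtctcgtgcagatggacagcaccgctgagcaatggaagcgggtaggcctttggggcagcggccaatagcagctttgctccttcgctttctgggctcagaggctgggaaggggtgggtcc
Hk2: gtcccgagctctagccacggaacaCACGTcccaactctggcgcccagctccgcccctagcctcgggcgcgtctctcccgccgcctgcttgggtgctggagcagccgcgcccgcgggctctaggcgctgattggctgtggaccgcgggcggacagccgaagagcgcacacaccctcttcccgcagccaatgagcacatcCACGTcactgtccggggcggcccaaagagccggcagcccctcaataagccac
Pdk1: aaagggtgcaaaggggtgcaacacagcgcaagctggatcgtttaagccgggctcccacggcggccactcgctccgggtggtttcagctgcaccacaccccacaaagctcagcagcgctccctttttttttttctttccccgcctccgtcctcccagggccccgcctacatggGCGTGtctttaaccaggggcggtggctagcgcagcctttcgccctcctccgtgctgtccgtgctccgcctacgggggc
Slc2a1: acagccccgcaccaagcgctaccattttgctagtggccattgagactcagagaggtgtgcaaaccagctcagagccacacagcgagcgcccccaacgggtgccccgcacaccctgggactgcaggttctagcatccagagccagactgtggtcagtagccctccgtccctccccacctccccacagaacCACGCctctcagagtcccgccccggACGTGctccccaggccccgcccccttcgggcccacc

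The window of Ldha start a held 5 matches to ACGTG over both strands, 4 of them in 2 copies of the palindrome CACGTG, the E-box letters bound by MYC, which match once on each strand. Start b of Ldha, the one whose first bases lie in an annotated GENCODE M21 transcript, held 1 match to GCGTG and 0 to ACGTG. Pgk1 and Hk2 held 2 matches each, Slc2a1 held 1 match to ACGTG and 1 to GCGTG, and Pdk1 held 1 match to GCGTG only (its second RefSeq start, not shown, held none). Of 32851 such windows over all genes, 16.6% held ACGTG, 28.2% held GCGTG and 38.6% held at least one of them. The other members with a RefSeq window were Pfkp, with 3 matches to GCGTG, and Aldoa, Eno1 and Pkm, each with a match in at least 1 of several windows. The shares over all genes are per window, whereas 9 members had 16 windows. The members with a match therefore cannot be set against those shares. A match is a stretch of letters and was not tested as a binding site.

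The members spanned a wide range of levels, from among the most abundant RNAs of the tissue to weakly expressed. Together they took 1.282% to 1.472% of the reads of a library (mean 1.38%). By mean RPKM over the 6 embryos, Ldha ranked 16th of 14132 genes at 894 RPKM, Pkm 26th at 688 RPKM and Aldoa 45th at 447 RPKM. Pgk1 was at 402 RPKM, Eno1 at 350.5 RPKM, Slc2a3 at 280.4 RPKM and Slc2a1 at 275 RPKM, and all of these were among the 117 highest genes. Hk2 followed at 39.4 RPKM (rank 1278), and Pdk1 at 7.69 RPKM (rank 5833) and Pfkp at 2.68 RPKM (rank 9057) were the lowest. This order is by RPKM and so depends on exon length. Neighbours in it were compared within embryos by an exact two-sided sign-flip permutation test, adjusted over 9 pairs. For 6 pairs the order was the same in 6 of 6 embryos (exact p = 0.03125, the smallest that 6 embryos can give, adjusted p = 0.0469). The other 3 pairs did not differ beyond their spread. Aldoa exceeded Pgk1 in 5 of 6 embryos (exact adjusted p = 0.0804), Pgk1 exceeded Eno1 in 4 of 6 (exact adjusted p = 0.141), and Slc2a3 exceeded Slc2a1 in 2 of 6 (exact adjusted p = 0.75).

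**Figure D1:**
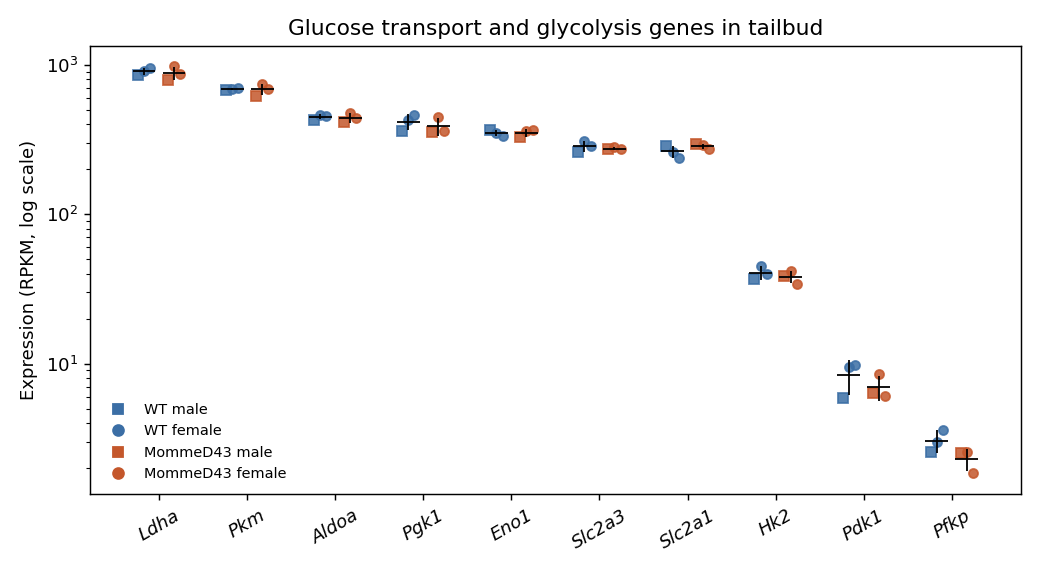
RPKM (log axis) of the 10 genes in each embryo, WT in blue and MommeD43 in orange, squares for males and circles for females; horizontal lines are group means and vertical lines 1 SD (n = 3). Ldha is the highest at 894 RPKM on average and Pfkp the lowest at 2.68 RPKM, and for Pfkp alone the points of the genotypes do not overlap.

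No member passed the test between genotypes. limma, adjusted by the Benjamini-Hochberg method over all 14132 genes, called 0 of the 10 members at 0.05, and 0 had an unadjusted p under 0.05. Over all genes it called 0 as well (0% of those tested), and 341 (2.41%) reached 0.05 unadjusted. The smallest adjusted p of any gene was 0.9995, and each member had that value. The log2 fold change of MommeD43 against WT was below 0 for 8 members and above 0 for 2, with a median of -0.05 against 0.00 over all genes. Without MommeD43 replicate 1 it was below 0 for 5 members, and with each library left out in turn the members' median ran from -0.10 (without WT replicate 1) to -0.01 (without WT replicate 2). It was within 0.15 of 0 for 8 members. In bulk tissue, less RNA per cell and fewer cells expressing a gene cannot be told apart.

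Among the transporters, Slc2a1 (GLUT1, the widespread basal glucose transporter) was at 288, 263 and 239 RPKM in WT replicates 1 to 3 and at 294, 291 and 273 RPKM in MommeD43 replicates 1 to 3. The lowest MommeD43 value lay within the WT range, so the groups overlapped. The means were 263 ± 24.4 RPKM in WT and 286 ± 11.2 RPKM in MommeD43 (SD, n = 3), a log2 fold change of 0.12 ± 0.075 (SE) with a 95% interval of -0.05 to 0.29. Slc2a3 (GLUT3, a transporter with high affinity for glucose) was at 260.1, 309.7 and 287 RPKM in WT and at 271, 281 and 273 RPKM in MommeD43. The 3 MommeD43 embryos lay inside the WT range. Its log2 fold change was -0.05 ± 0.070 (SE), with an interval of -0.21 to 0.11.

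The first committed steps came next. Hk2, hexokinase 2, which phosphorylates glucose and so keeps it in the cell, was at 37.0, 45.3 and 39.7 RPKM in WT and at 38.8, 41.4 and 34.4 RPKM in MommeD43. The ranges overlapped, and the log2 fold change was -0.09 ± 0.094 (SE), interval -0.30 to 0.13. Pfkp, the platelet-type phosphofructokinase, a subunit type of the enzyme that commits sugar to glycolysis, was at 2.56, 3.01 and 3.61 RPKM in WT and at 2.53, 2.54 and 1.84 RPKM in MommeD43. It was the single member whose genotypes did not overlap, all 3 MommeD43 values being lower, as was so for 501 of all genes tested (3.55%), with another 3.52% not overlapping in the higher direction. The gap between WT replicate 1 and MommeD43 replicate 2 was narrower than counting error, since their exact Poisson 95% intervals were 2.42 to 2.70 RPKM and 2.42 to 2.67 RPKM, from 1255 and 1612 reads. The means were 3.06 ± 0.525 RPKM and 2.30 ± 0.4003 RPKM (SD, n = 3). The log2 fold change was -0.41 ± 0.181 (SE), with an interval of -0.83 to 0.01 and an unadjusted limma p of 0.0531.

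The enzymes of the lower pathway were the most abundant members. Aldoa, aldolase A, which splits fructose bisphosphate, was at 428, 464 and 457 RPKM in WT and at 412, 479 and 439 RPKM in MommeD43. Pgk1, the X-linked phosphoglycerate kinase that makes ATP, was at 363, 425 and 461 RPKM in WT and at 357, 447 and 359 RPKM in MommeD43. For both genes MommeD43 replicate 2 was at or near the top, MommeD43 replicate 1 was the lowest embryo, and the groups overlapped. Their log2 fold changes were -0.02 ± 0.070 (SE) for Aldoa and -0.10 ± 0.114 (SE) for Pgk1. Both males were among the 3 lowest embryos for Pgk1, together with the female MommeD43 replicate 3.

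Eno1, enolase 1, which forms phosphoenolpyruvate, was at 365, 348 and 334 RPKM in WT and at 327, 362 and 366 RPKM in MommeD43. Pkm, the muscle-type pyruvate kinase that makes pyruvate and ATP, was at 680.3, 692 and 697 RPKM in WT and at 623, 748 and 689.7 RPKM in MommeD43. For both genes the MommeD43 embryos spread wider than the WT embryos and enclosed them. Log2 fold changes were 0.01 ± 0.065 (SE) for Eno1 and -0.01 ± 0.075 (SE) for Pkm, with intervals of -0.14 to 0.16 and -0.18 to 0.16. Ldha, lactate dehydrogenase A, was at 855, 915 and 951 RPKM in WT and at 796, 977 and 868 RPKM in MommeD43. The extremes were both MommeD43 embryos, and the log2 fold change was -0.05 ± 0.087 (SE), interval -0.25 to 0.15.

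Pdk1, a kinase that turns off pyruvate dehydrogenase and so holds pyruvate back from the mitochondria, was at 5.87, 9.56 and 9.76 RPKM in WT and at 6.41, 8.51 and 6.04 RPKM in MommeD43. The lowest value was WT replicate 1, and the 3 MommeD43 embryos lay inside the WT range. The means were 8.40 ± 2.19 RPKM and 6.98 ± 1.33 RPKM (SD, n = 3), with a log2 fold change of -0.24 ± 0.210 (SE) and an interval of -0.73 to 0.24. Pdk1 and Pfkp thus had the widest intervals, and the interval allows a change of Pdk1 to 0.603-fold or to 1.18-fold of WT. For Ldha the same interval ran from 0.843-fold to 1.11-fold.

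**Figure D2:**
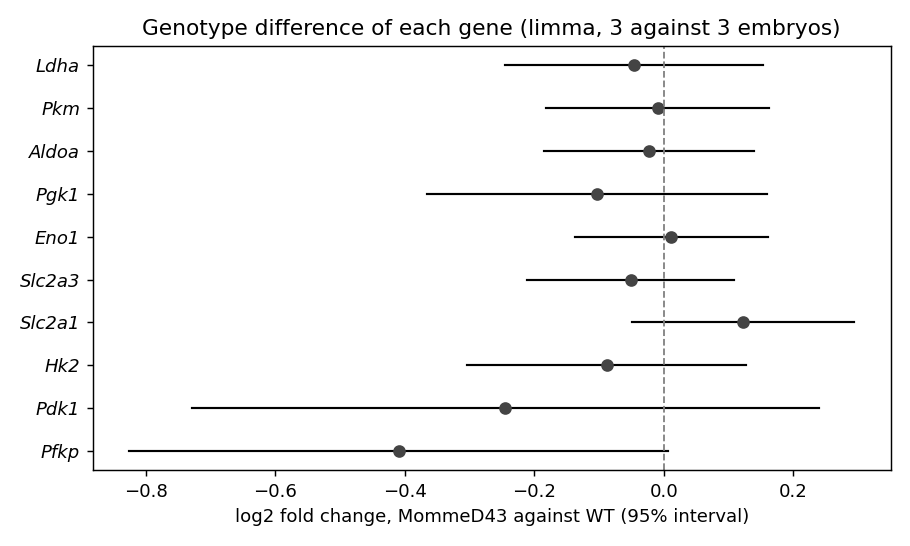
Log2 fold change of MommeD43 against WT for each gene from limma, points with 95% intervals, and a dashed line at 0. All 10 intervals include 0, with Pfkp at -0.41 the farthest from it and Pdk1 and Pfkp the least precise.

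The genotype difference was also taken for each sex on its own. With a single male per genotype, the spread of the males was taken from the females. The difference between the sexes passed for 0 of the 10 members (smallest adjusted p = 0.465 by limma, for Eno1) and for 35 of 14132 genes (0.248%). The 35 included 5 of 8 yolk sac and visceral endoderm markers and 2 of 11 tailbud markers. The yolk sac markers summed to 136, 246 and 277 RPKM in WT replicates 1 to 3 and to 431, 50.6 and 37.2 RPKM in MommeD43 replicates 1 to 3, so the male was the lowest WT embryo and the highest MommeD43 embryo. All 8 of these markers had a lower mean log2 level in MommeD43, with 0 called between genotypes, and their part in the members' values was not tested. In females, Pfkp had a log2 fold change of -0.61 and Pdk1 of -0.43, against -0.02 and 0.13 in the male pair. For 5 members the male pair and the females had opposite signs.

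Embryos of the same genotype differed from each other, and most members shared the pattern. Each gene's log2 RPKM was centred on its mean over the 6 embryos, and the 10 centred values were averaged in each embryo. This mean was -0.07, 0.10 and 0.10 in WT replicates 1 to 3 and -0.09, 0.09 and -0.12 in MommeD43 replicates 1 to 3. Each genotype had embryos on both sides. Pfkp and Pdk1 had the widest swings and so weigh most in this mean. Pfkp ran from a centred value of 0.46 in WT replicate 3 to -0.51 in MommeD43 replicate 3, and Pdk1 from 0.38 in WT replicate 3 to -0.36 in WT replicate 1. Among the 45 pairs of members, Pearson's r over the 6 embryos had a median of 0.48, with 22 pairs over 0.5 and 13 under 0. The closest partners of Pdk1 and Pgk1 included each other (r = 0.945), and Pgk1 with Ldha gave 0.909. Slc2a1 ran the other way from most, with a median r of -0.48 to the other members and -0.66 to Pdk1, and Eno1 had a median r of -0.16. All values of a library share its depth and its dissection, so these correlations describe the embryos and carry no test.

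The SD over 6 embryos on the log2 scale was 0.34 for Pdk1, 0.32 for Pfkp, 0.17 for Pgk1 and 0.14 for Hk2. It was between 0.07 and 0.11 for the other 6 members. The median was 0.14 over all genes and 0.08 over the 1635 genes with a mean of at least 32 RPKM, among which 8 members fall.

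Genes outside the list that are textbook targets of the hypoxia response varied along with the members. Of 14 such genes tested, 11 (78.6%) had r over 0.5 with the members' mean, against 24.2% of all genes. This was the highest share among the lists of related genes described further on, which together had 41.1%. It was 54.5% for pyruvate dehydrogenase and its regulators, 52.9% for other glycolytic enzymes, 23.5% for the citric acid cycle and 0% for gluconeogenesis. Bnip3, which acts in mitophagy, had r of 0.94 and was at 30.8, 57.4 and 48.8 RPKM in WT and at 36.4, 47.8 and 31.8 RPKM in MommeD43. Egln1, the main prolyl hydroxylase that marks HIF1A for destruction, had r of 0.92 and was at 18.3, 31.0 and 29.9 RPKM in WT and at 23.3, 29.8 and 19.6 RPKM in MommeD43. For both genes WT replicates 2 and 3 and MommeD43 replicate 2 were the 3 highest embryos, as for Pdk1. Vegfa, the endothelial growth factor, had r of -0.43, and Adm and Ankrd37 were near 0 (r = -0.05 and 0.01). Bnip3, Egln1 and Vegfa were singled out after their values were seen.

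The erythroid markers followed the same embryos. Their mean centred log2 level had r of 0.94 with the members' mean over the 6 embryos, and 7 of the 8 were lower in MommeD43 on average, with 0 called. Library depth had r of 0.44 with it on the log2 scale, the neural tube markers 0.68, the tailbud markers -0.57, the endothelial markers 0.31, and the yolk sac and visceral endoderm markers 0.19. The part that blood cells, other tissue in the dissection or depth had in the members' variation was not tested. Of 11076 other genes at 1 RPKM or more, 309 had r over 0.9 with the members' mean. The 5 highest were Rnf19a (0.998), Zcchc3 (0.994), Ccnd2 (0.990), Ppa2 (0.989) and Rab11fip2 (0.988).

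**Figure D3:**
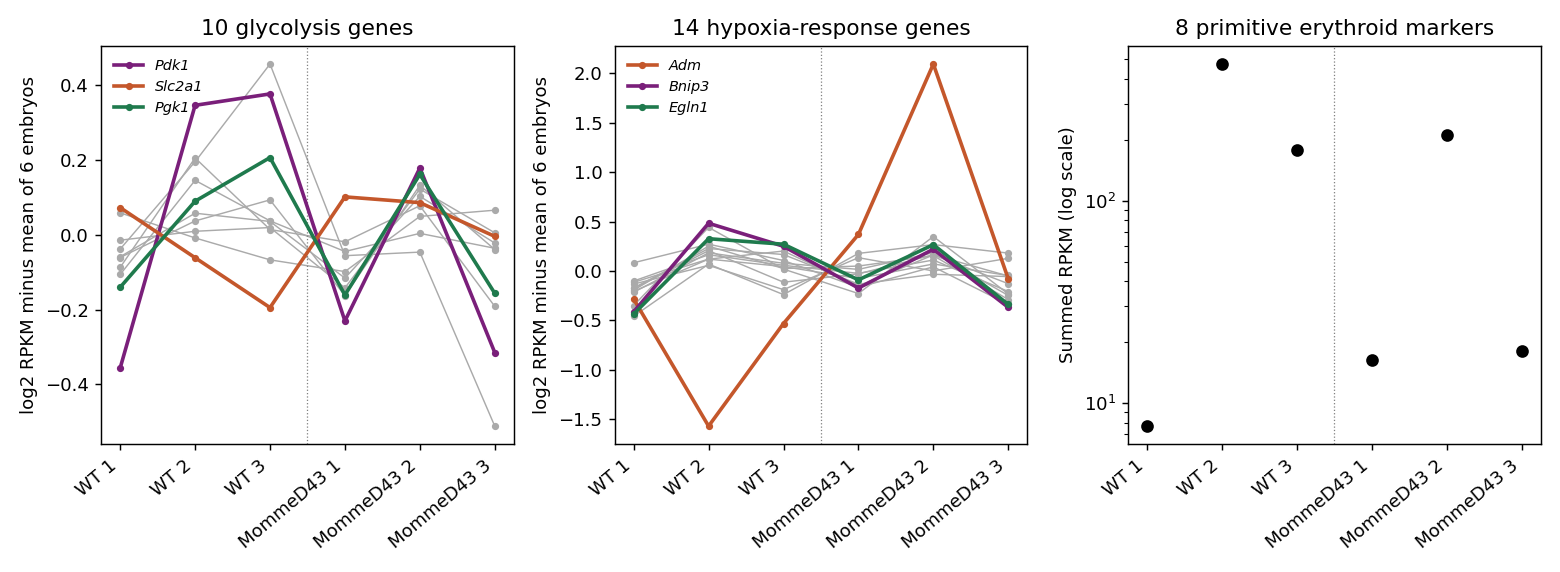
Left and middle, log2 RPKM minus the gene's mean over 6 embryos for the 10 members and for 14 hypoxia-response genes, a line for each gene with a few named; right, summed RPKM (log axis) of 8 primitive erythroid markers. In all 3 panels WT replicates 2 and 3 and MommeD43 replicate 2 are high for most lines or points, while Slc2a1 on the left and Adm in the middle depart from this.

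The isozymes that carry out the same steps differed in RNA level per exon length (protein was not measured). These pairs were looked at after the levels were seen and are a description over 6 embryos. Hk2 was at 39.4 RPKM and Hk1 at 2.98 RPKM, 13.3-fold apart on the log2 mean. Of the phosphofructokinase subunits, Pfkl (liver type) led with 97.7 RPKM, ahead of Pfkm (muscle type) with 14.7 RPKM and Pfkp with 2.68 RPKM, so Pfkp was the minor form in each embryo. The RPKM of Pfkp is divided by 13401 bases of merged exons, against 6675 for Pfkl and 3340 for Pfkm. Aldoa exceeded Aldoc (2.76 RPKM) in 6 of 6 embryos, and Ldha was 21.4-fold above Ldhb (42.4 RPKM), the form that favours pyruvate. The liver and red-cell pyruvate kinase Pklr was near its limit, at 0.220 RPKM and with no read in MommeD43 replicate 3, where a count of 0 allows up to 3 reads.

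Among the pyruvate dehydrogenase kinases, Pdk3 was at 25.4 RPKM, Pdk1 at 7.69 RPKM and Pdk2 at 0.977 RPKM. Pdk3 exceeded Pdk1 3.38-fold per length, while before division by exon length (2561 and 7779 bases) the mean reads scaled to library size alone (RPM) were 65.1 and 59.8. The lactate carriers Slc16a1 (MCT1) and Slc16a3 (MCT4) were at 83.4 and 55.8 RPKM, each above Hk2 in 6 of 6 embryos.

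**Figure D4:**
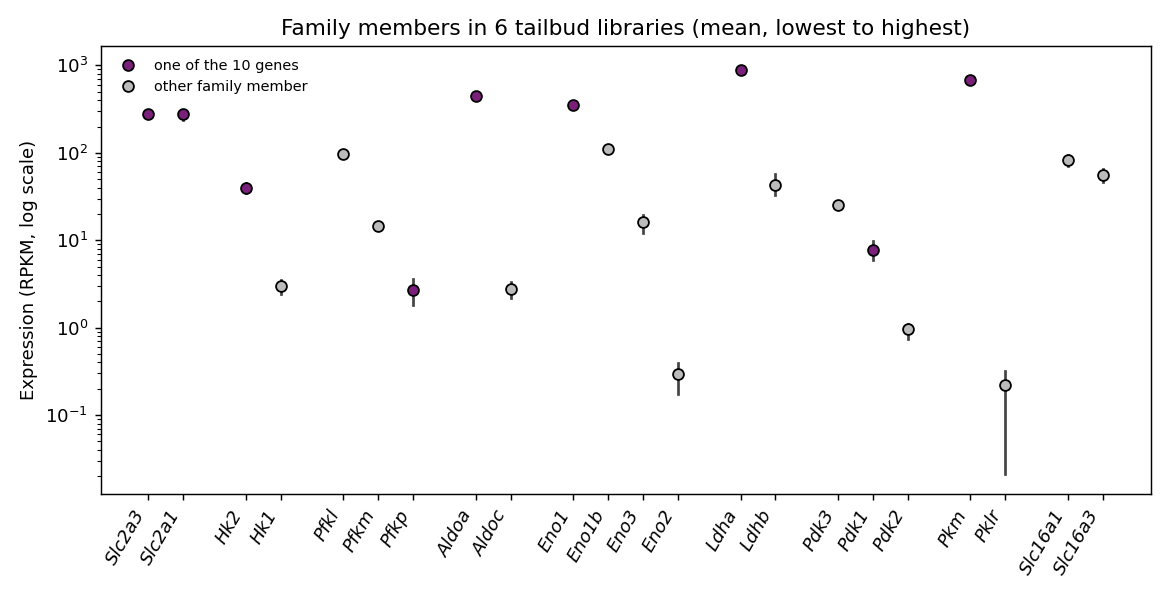
Mean RPKM (log axis) over 6 embryos of each family of isozymes or transporters, with a line from the lowest to the highest embryo; purple points are among the 10 genes and grey points are other family members. Hk2, Aldoa, Eno1, Ldha and Pkm lead their families, whereas Pfkp at 2.68 RPKM is under Pfkl at 97.7 RPKM and Pdk1 is under Pdk3.

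Reads of some members can be shared with near-identical genes, and how such reads were counted was not given in the sources used here. Of the 75-base stretches of Pgk1 transcripts, 52.8% occurred unchanged in another gene, almost all in Pgk1-rs7. The share was 23.0% for Eno1, mostly in Eno1b (112 RPKM, 80.6% of whose own stretches were shared), and 17.8% for Pkm. It was 4.87% for Pfkp, 2.69% for Ldha, under 1% for Slc2a1, Slc2a3 and Aldoa, and 0% for Hk2 and Pdk1. The levels of Pgk1, Eno1 and Pkm are uncertain for this reason, and the share of stretches does not give the size of the error. Of the exon bases of Pkm, 15.3% also lay in exons of other genes on the same strand. Gapdh, the step between Aldoa and Pgk1, was listed at 7.06 RPKM, with 22.6% of its stretches present in 121 other genes. Aldoa has a second entry with the same identifier at 2.28 to 3.38 RPKM, which was not used.

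Other genes of glucose metabolism, hypoxia-response genes and transcription factors of the glycolytic programme did not pass the test either. Of 101 further genes in these 9 lists, 90 were tested, and 0 were called in either direction. By limma, 5 of the 90 reached 0.05 unadjusted, a larger share than the 2.41% of all genes tested. These shares were not compared by a test. Of the 5 genes, 3 were hypoxia-response genes, 1 was a transcription factor and 1 was a gene of gluconeogenesis. The log2 fold change was above 0 for 43 and below 0 for 47, with a median of 0.00. Of 17 other glycolytic enzymes 5 were higher and 12 lower (median -0.05), and of 17 genes of the citric acid cycle 14 were higher and 3 lower (median 0.04).

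The genotypes did not overlap for 13 of the 90 genes, 7 higher and 6 lower in MommeD43. This was a larger share than the 7.07% of all genes in either direction, and the difference was not tested. Higher were Epas1 (HIF2A; 2.21 ± 0.337 RPKM in WT and 3.09 ± 0.0387 RPKM in MommeD43), Adm (adrenomedullin), Ankrd37, Slc2a10, G6pc3 and the succinate dehydrogenase subunits Sdha and Sdhb. Adm had 9 to 34 reads in WT and 14 to 228 in MommeD43, and its highest embryo was MommeD43 replicate 2 at 2.98 RPKM. Lower were Ddit4, an inhibitor of mTORC1 (43.4 ± 3.14 RPKM in WT and 35.2 ± 4.66 RPKM in MommeD43), Pfkfb4, Pdk2, Dlat, Idh3a and Pklr. The log2 fold changes were 0.50 ± 0.141 (SE) for Epas1 and -0.31 ± 0.099 (SE) for Ddit4, and both had an adjusted p of 0.9995 by limma.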

How the data were processed

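Polyadenylated RNA from tailbud of 6 embryos was sequenced as stranded libraries of single reads. According to the study's methods and the submitters' processing notes, the authors trimmed reads with Trim Galore 0.4.4 and Cutadapt, mapped them with HISAT2 2.0.5 to GRCm38.p6 and quantified genes in SeqMonk. The deposited table holds log2 RPKM, and the authors' group means in it were not used. Groups, replicate numbers and sexes came from the labels. Separate embryos make the replicates, and the mean chi-square per gene between libraries was 4.76 or more, where sampling noise gives about 1.

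Reads were recovered from RPKM with the merged exon lengths of GENCODE M21. An undetected gene sat at 0.9 read, and 99.6% of 105249 values above it were whole within 0.02. The 95% intervals of RPKM are exact Poisson intervals from these reads and cover counting error only, while those of fold changes come from limma and cover the spread between embryos. Genes were kept where 3 libraries reached the depth-scaled count of 10 reads in a library of median size, with 15 reads in all. Y-linked genes and Xist were left out. Genotypes were compared with limma-trend (limma 3.58.1 in R 4.3.3) without a pseudocount, adjusted by Benjamini-Hochberg. The rest used scipy 1.17.1, pandas 2.3.3, numpy 2.4.6 and matplotlib 3.10.9 under Python 3.11.15. The code was tested on simulated data, where limma recovered 86.5% of 200 genes changed 2-fold among 14132, with 7 false calls. It made 0 calls with no gene changed. The share of 2-fold changes that would be found in these embryos was not tested.

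Sequences shared between genes were exact 75-base matches among annotated transcripts. Promoter windows came from the RefSeq table, which matched 9 of the 10 genes. Alternatives were leaving out each library, females alone, a covariate for sex, a replicate block, other filters, pseudocounts and scalings, autosomes alone, and voom on recovered reads. The members and lists were chosen with earlier results of these data known. Besides the 10 members, genes were named by rule: pathway genes that were called or, since none was, whose groups did not overlap, Smchd1, near-identical copies, and the 5 genes most like the members' mean. Isozymes and the hypoxia examples were named after their values were seen.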

Additional observations from a re-analysis of the deposited data

How the results depend on the processing

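The count of members called between genotypes was 0 under each of the 17 alternatives, and so was that of pathway genes. The count over all genes was 0 under all but females alone, which called 11. The fit with the replicate block called 0 genes, with 321 at an unadjusted p under 0.05 against 341 without it. Number 1 marks males of the same mother, while numbers 2 and 3 mark embryos of different mothers, so the numbers as a whole were not taken as pairs. Deviations from group means correlated at -0.03, 0.24 and -0.24 for numbers 1, 2 and 3. Pfkp, Pdk1, Hk2, Pgk1 and Slc2a1 kept their direction throughout, Pfkp from -0.61 to -0.26, Pdk1 from -0.48 to -0.12 and Slc2a1 from 0.06 to 0.19 on the log2 scale. Members with an unadjusted p under 0.05 numbered 3 without WT replicate 1 and 3 by voom (Slc2a1, Pfkp and Pdk1 in both). Of all 14132 genes, 998 and 818 were under it in these 2 fits. In females alone 2 members were under it, beside 1249 of 14132 genes. Pfkp was the only such member without MommeD43 replicate 2, beside 439 of 14132 genes, and with the looser filter, beside 590 of 20825. The smallest adjusted p of a member under any alternative was 0.529.

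Fold changes near 0 changed sign. In females alone Pkm was at 0.0494 and Eno1b at 0.0938, and by voom Eno1b was at 0.00186. With each library left out in turn, log2 fold changes ran from -0.117 to 0.00886 for Slc2a3, from -0.0806 to 0.0288 for Aldoa, from -0.0197 to 0.0631 for Eno1, from -0.0732 to 0.0591 for Pkm, from -0.124 to 0.0233 for Ldha and from -0.0719 to 0.0414 for Eno1b. The cause was not tested. The difference between the sexes called 32 to 43 genes, with 0 members. In the order of levels, 6 or 7 neighbour pairs kept their direction in every embryo used, but not always the same pairs. Without division by exon length, Pkm (mean 3442 RPM) exceeded Ldha (2958 RPM) and Slc2a3 (2031 RPM) exceeded Eno1 (1885 RPM). The order within these pairs thus depends on exon length. The median correlation between members was 0.49 to 0.51 with a library left out, 0.43 with values centred within each genotype and 0.47 with median-ratio scaling, all chosen after seeing the data. With 3 embryos a genotype and an SD of 0.32 to 0.34 for Pfkp and Pdk1, changes of their measured size could not be told from the spread between embryos.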
